A study of Mus musculus with 6 samples.

Results

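The CXC chemokines that attract neutrophils and their receptors were examined in colon of Islr knockout mice: the ligands Cxcl1, Cxcl2, Cxcl3, Cxcl5, Ppbp (also called Cxcl7) and Pf4 (also called Cxcl4), and the receptors Cxcr1 and Cxcr2. The genes were taken as a list by their known function, with earlier results of these data known, and each was found through the RefSeq accession of its probe. All 8 genes were found, each with 1 probe, among 23462 named genes on the array. Whole-genome expression was measured on 6 single-colour Agilent arrays, 1 per male mouse, in 3 animals labelled as controls and 3 labelled as Islr knockouts. Per the sample source, every animal of both groups had 3.5% dextran sulfate sodium, which injures the colonic epithelium, in its drinking water for 5 days and then 1 day of recovery; the treatment field of the same labels reports no treatment. The labels give neither the design of the knockout allele, nor a Cre driver, nor the animals' age and strain.

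CXC chemokines are small secreted proteins that bind G protein-coupled receptors on leukocytes. Cxcl1, Cxcl2, Cxcl3, Cxcl5 and Ppbp carry a Glu-Leu-Arg motif before their CXC cysteines and act on Cxcr2, the main receptor by which mouse neutrophils leave the marrow and enter inflamed tissue. Pf4 lacks that motif, is stored with the Ppbp product in platelet granules and is not a classical Cxcr2 ligand. In injured colon, epithelium, fibroblasts and myeloid cells can all produce the inducible ligands.

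The 6 ligand genes lie together on mouse chromosome 5, and the 2 receptor genes are neighbours on chromosome 1. RefSeq promoter sequences of build GRCm38.p6 were matched by symbol for 7 of the 8 genes; Cxcl5 was not matched. The 140 bases before the transcription start are shown for the 3 ligands Cxcl1, Cxcl2 and Cxcl3 because they share a string, and for Ppbp as a ligand of the same cluster without it. All are on the plus strand, 5′ to 3′, at chr5:90891105-90891244 for Cxcl1, chr5:90903759-90903898 for Cxcl2, chr5:90785961-90786100 for Cxcl3 and chr5:90768378-90768517 for Ppbp. Capitals mark the string GGGAATTTCC, a form of the κB site that NF-κB proteins bind, and nearer the start ATAAAA, which resembles a core promoter box.
Cxcl1: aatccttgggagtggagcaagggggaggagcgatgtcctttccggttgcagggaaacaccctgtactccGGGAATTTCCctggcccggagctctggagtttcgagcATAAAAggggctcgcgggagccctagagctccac
Cxcl2: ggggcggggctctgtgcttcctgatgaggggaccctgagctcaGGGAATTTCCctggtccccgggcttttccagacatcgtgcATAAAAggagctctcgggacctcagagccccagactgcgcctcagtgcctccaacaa
Cxcl3: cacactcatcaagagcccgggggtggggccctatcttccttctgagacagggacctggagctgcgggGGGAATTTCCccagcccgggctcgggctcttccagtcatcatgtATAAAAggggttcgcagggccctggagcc
Ppbp: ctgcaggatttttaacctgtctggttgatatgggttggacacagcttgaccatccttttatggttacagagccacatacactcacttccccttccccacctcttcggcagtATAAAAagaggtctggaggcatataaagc

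The κB consensus was searched on both strands over the 250 bases before the start and was found in 1281 of 32851 promoters in the table (3.9%). Among these genes it was found in Cxcl1, Cxcl2 and Cxcl3 only, each time as GGGAATTTCC on the strand shown. On the opposite strand an overlapping string, GGGAAATTCC, also matched in each. Its span on the strand shown began 70, 96 and 72 bases before the start of Cxcl1, Cxcl2 and Cxcl3. GGGAATTTCC occurred once each in Cxcl1 (first base 71 bases before the start), Cxcl2 (97) and Cxcl3 (73), and was not found in that window of Ppbp, Pf4, Cxcr1 or Cxcr2. Of all promoters, 28 held it (0.0852%). On the strand shown, ATAAAA began 34, 57, 29 and 29 bases before the start of Cxcl1, Cxcl2, Cxcl3 and Ppbp. On the opposite strand, not marked above, it was also found in Ppbp, Pf4 and Cxcr1. Counting either strand, every matched gene but Cxcr2 held it, as did 17% of all promoters. GGGAATTTCC and ATAAAA do not overlap. In a gapped alignment of the 140-base windows, Cxcl1, Cxcl2 and Cxcl3 were identical to one another at 65.7% to 67.9% of positions, and the pairs of Ppbp with them at 50.7% to 60.7%.

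The 75th percentile of the signal, used to scale each array, lay between 6353 and 7110.5 intensity units in controls and between 4910.5 and 5820.0 in knockouts. The controls occupied 1 row of the slide and the knockouts the other, so slide position and genotype cannot be told apart. Islr itself was lower by 2.44 on the log2 scale in the knockouts (log2 difference -2.44, SE 0.21, limma adjusted p = 0.0171) and stayed well above background on all 3 of their arrays. The labels name colon, while the series' design text speaks of flow separation; the listed markers of epithelium, fibroblasts, endothelium and macrophages were well above background on all 6 arrays. Across the array 1403 of 35351 tested probes differed at a 5% false discovery rate (3.97%), and 855 of them were lower in the knockout (2.42%).

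Ppbp and Cxcr2 were lower in the knockouts and passed the test across the array. The other 5 ligands also gave lower signals in every knockout than in every control but did not pass, and Cxcr1 was too dim to measure. Spots that the scanner software marked as outliers were left out of the test; with them left out, 5 of the 8 genes could be tested, and 2 were called, both lower. With the marked spots kept, 7 could be tested and the same 2 were called, against 4.85% of all probes called and 2.89% called lower in that fit. Cxcl2, Cxcl3 and Ppbp entered the test through the controls alone, where they were bright, so the direction of those members is no independent evidence. For comparison, the groups did not overlap at 34.9% of 40172 probes, and the knockouts all lay below the controls at 17.6%. Per gene, the exact permutation test of 3 against 3 arrays gave p = 0.1, the smallest it can give.

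**Figure D1:**
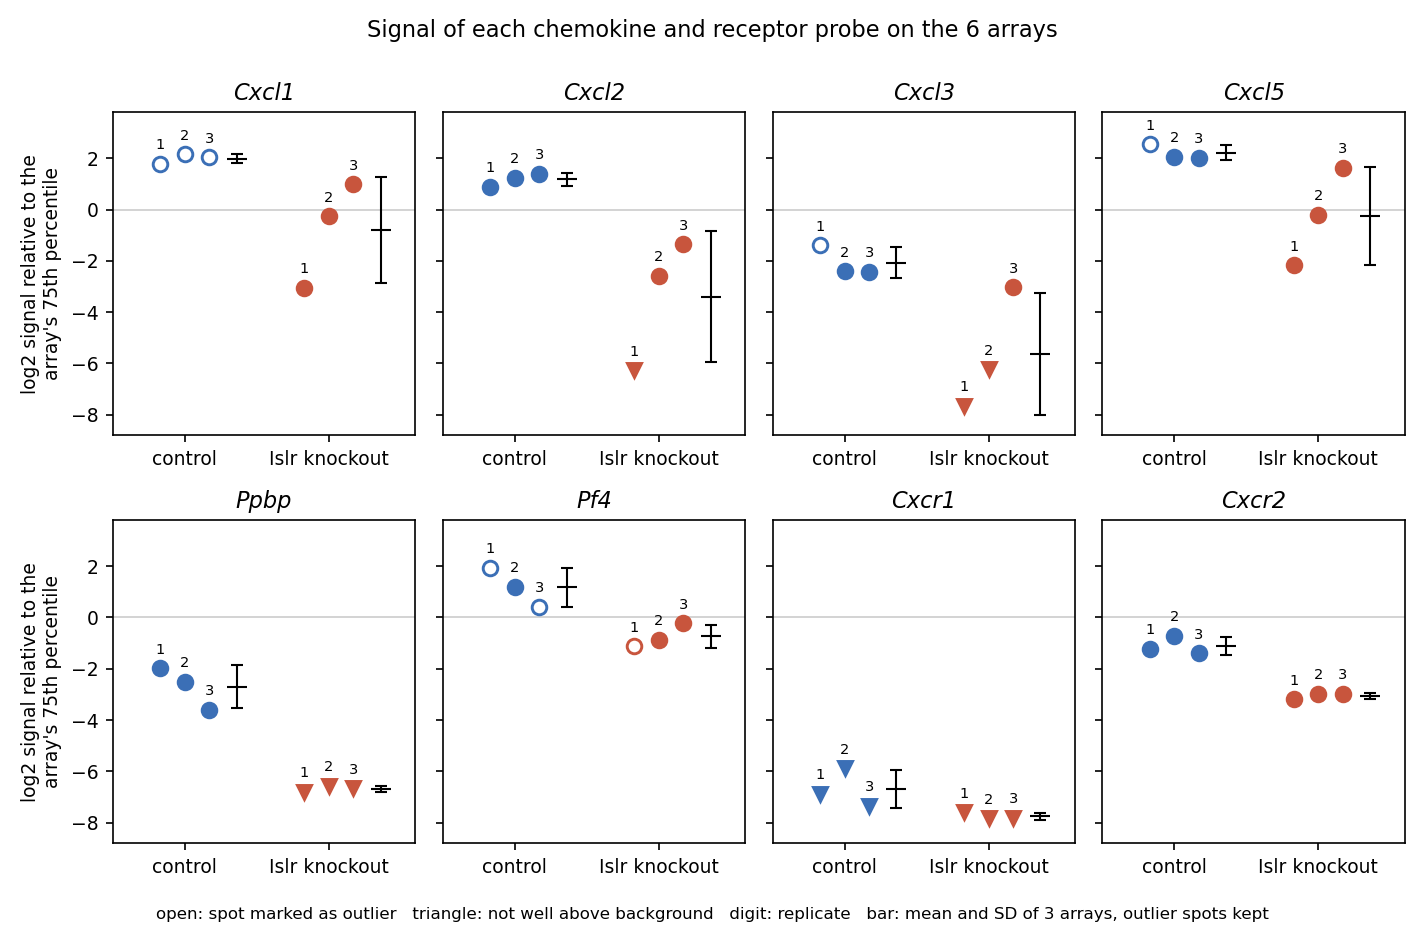
Log2 signal of each gene's probe relative to the array's 75th percentile (y axis) in the 3 control and 3 Islr knockout animals (x axis); open symbols are outlier-marked spots, triangles are spots not well above background, and bars are the mean and SD of 3 arrays. No knockout point reaches a control point in any panel, and the knockouts spread widely for Cxcl1 and Cxcl5 and narrowly for Cxcr2, while all 3 Ppbp knockout spots are not well above background; heights are not comparable between panels.

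Cxcl1 encodes the keratinocyte-derived chemokine KC, an early neutrophil attractant. Its signal was 346.7%, 443% and 408.5% of the array's 75th percentile in the 3 controls, and 12.0%, 83.4% and 196.9% in knockout replicates 1, 2 and 3. The controls lay within 1.28-fold, whereas the knockouts covered a 16.4-fold range without reaching the controls. All 3 control spots were marked as outliers, so the main test has no value for this gene. With them kept, knockouts were 6.83-fold lower (log2 difference -2.77, SE 0.93), which did not pass (limma adjusted p = 0.117). Without knockout replicate 1 it was -1.63 (adjusted p = 0.110).

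Cxcl2 encodes MIP-2, a ligand made by macrophages and other cells on Toll-like receptor or interleukin-1 signals. It stood at 185%, 236.5% and 263.8% of the 75th percentile in controls and at 1.29%, 16.8% and 39.1% in knockouts 1, 2 and 3. Its gap between the groups, 2.24 on the log2 scale from the lowest control to the highest knockout, was wider than that of Cxcl1 (0.82). The mean was 1.18 ± 0.26 in controls and -3.40 ± 2.56 in knockouts relative to the 75th percentile (log2, SD, n = 3 each), a difference of -4.58 (SE 1.16) that did not pass (limma adjusted p = 0.0715). Among 40172 probes ordered from the lowest difference, with marked spots kept, it stood at place 12. Knockout replicate 1 was not well above background, so the size of the difference is uncertain; without that animal it was -3.14 (SE 0.40) and passed (adjusted p = 0.0492). It also passed under normexp correction with quantile normalization (-4.22, adjusted p = 0.0376) and with array weights (-3.69, adjusted p = 0.0191). Those fits called 7.84% and 23% of all tested probes, against 3.97% in the main fit. Over 19 other settings Cxcl2 passed in 4, and its limma adjusted p reached 0.179.

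Cxcl3 encodes a close relative of Cxcl1 and Cxcl2, and its protein acts on the same receptor. The signal was 38.2%, 18.9% and 18.6% of the 75th percentile in controls and 0.494%, 1.34% and 12.2% in knockouts 1, 2 and 3. Only the third of these knockouts was well above background. The first control spot was marked as an outlier; without it the difference was -3.23 (SE 1.29, limma adjusted p = 0.185), and with it -3.57 (SE 1.09, adjusted p = 0.0978). Without knockout replicate 3 and with marked spots kept the fit gave adjusted p = 0.0480, but both remaining knockouts were not well above background, so its size is not a measured difference. Without knockout replicate 1 it was -2.22 (adjusted p = 0.320) with marked spots left out. The probe sequences of these related genes were not examined here, so shared hybridisation between them was not tested.

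Cxcl5 encodes LIX, which epithelial cells and platelets can release. Controls stood at 583.4%, 416.2% and 405.5% of the 75th percentile and knockouts 1, 2 and 3 at 22.2%, 87.4% and 310.7%. The highest knockout came close to the lowest control, 0.38 below it on the log2 scale. The difference was -2.28 (SE 1.05, limma adjusted p = 0.230; 2 controls after the marked spot was left out), and -2.45 (SE 0.87, adjusted p = 0.130) with that spot kept. Without knockout replicate 1 it was -1.32 (adjusted p = 0.316), and no setting brought it past the threshold.

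Ppbp encodes a platelet protein whose cleavage yields the neutrophil attractant NAP-2. Its signal was 25.4%, 17.5% and 8.24% of the 75th percentile in controls and 0.894%, 1.06% and 0.982% in knockouts. Every control was well above background and no knockout was, so only a bound can be given: the control mean was at least 6.99-fold higher. The bound does not hold for each control singly. The fitted difference was -3.98 (SE 0.40, limma adjusted p = 0.0170). Normexp correction with quantile normalization gave -2.41 and kept the call (adjusted p = 0.0242). With marked spots left out, the call was lost without control replicate 2 (adjusted p = 0.0550) or knockout replicate 3 (0.0555). With marked spots kept, it held without control replicate 2 (limma adjusted p = 0.0444).

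Pf4 encodes platelet factor 4, which some tissue macrophages also make. Controls stood at 381%, 230.3% and 132.7% of the 75th percentile and knockouts 1, 2 and 3 at 45.7%, 55.1% and 85.2%. Spots were marked as outliers in 2 controls and 1 knockout, too many for the main test. With them kept, the difference was -1.92 (SE 0.42), or 3.79-fold lower, and lay just outside the threshold (limma adjusted p = 0.0515). The range was narrower over the knockouts (1.86-fold) than over the controls (2.87-fold).

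Cxcr2, the receptor that neutrophils carry for these ligands, was called. Its signal was 42.5%, 61.2% and 37.9% of the 75th percentile in controls and 11.0%, 12.7% and 12.6% in knockouts. All 6 spots were well above background and none was marked. The mean fell from -1.11 ± 0.36 to -3.05 ± 0.12 (log2 relative to the 75th percentile, SD, n = 3 each), a difference of -1.93 (SE 0.22), or 3.82-fold lower (limma adjusted p = 0.0211). The difference ranged from -2.08 to -1.73 over 20 other settings. The call depended on which array was dropped: with marked spots left out, the adjusted p rose to 0.0524 and 0.0514 on dropping control replicate 2 or 3. It rose to 0.0505 and 0.0609 on dropping knockout replicate 1 or 3. With marked spots kept it passed in all of these fits but the last (0.0613). Whether fewer neutrophils or less receptor RNA per neutrophil lay behind the lower Cxcr2 signal cannot be told apart in samples that hold several cell types. For the ligands above, fewer producing cells and less RNA per cell likewise cannot be told apart.

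Cxcr1, the other receptor of the family, was not well above background on any array. Its signal lay between 0.620% and 1.69% of the 75th percentile in controls and between 0.437% and 0.516% in knockouts. Such values have no usable fold change.

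**Figure D2:**
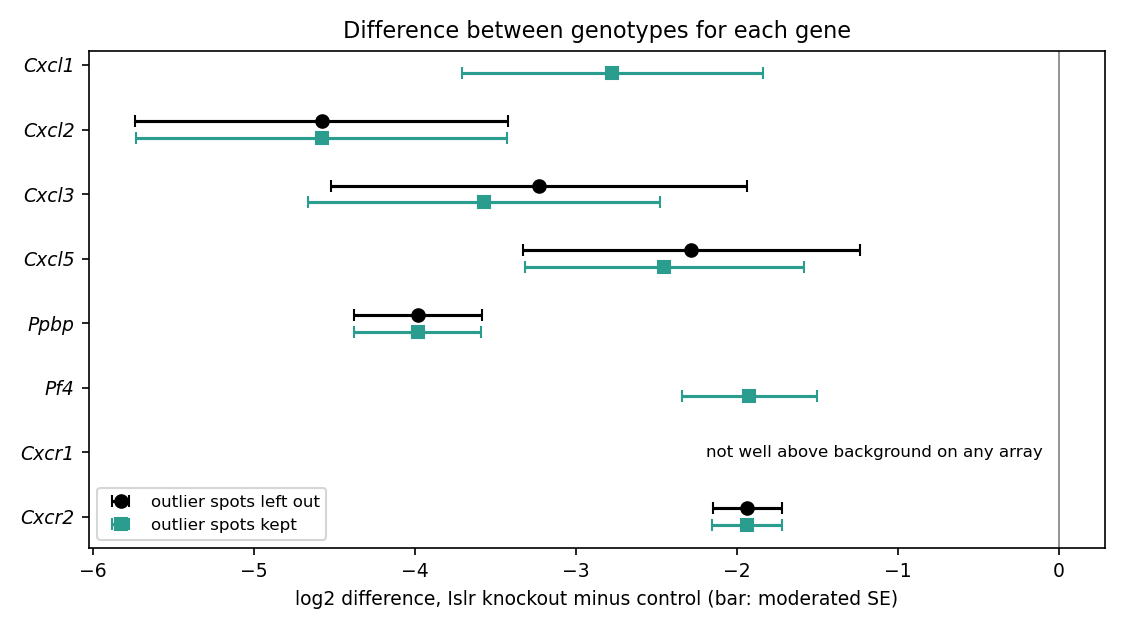
Log2 difference between Islr knockout and control (x axis, bars are limma's moderated SE) for each gene, with outlier-marked spots left out (circles) or kept (squares). The differences run from -4.58 for Cxcl2 to -1.92 for Pf4, and the SE is smallest for Cxcr2, Ppbp and Pf4; Cxcl1 and Pf4 have no value with marked spots left out.

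The knockout arrays differed more among themselves in Cxcl1 and Cxcl5 than in Cxcr2. The range over the 3 knockouts was 4.04 for Cxcl1 and 3.81 for Cxcl5 on the log2 scale, against 0.22 for Cxcr2, all from spots well above background. The ranges of Cxcl2 (4.92) and Cxcl3 (4.63) run down to spots not well above background, in knockout 1 and in knockouts 1 and 2. That of Ppbp, dim in all 3 knockouts, describes background and is not read. The median range over all tested probes was 0.47 in knockouts and 0.46 in controls, and 0.134% of probes had a knockout range of at least 4. Knockout replicate 1 was the lowest and replicate 3 the highest for 5 of 7 tested genes (Cxcl1, Cxcl2, Cxcl3, Cxcl5 and Pf4), an order seen at 22.3% of all tested probes.

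Whether a ligand differed more than Cxcr2 was asked with the log2 ratio of each of the 6 ligands to Cxcr2 within an array, marked spots kept. Pf4 was included although Cxcr2 is not its classical receptor. For Cxcl2 the ratio was 1.95 to 2.80 in controls and -3.08 to 1.63 in knockouts, with no overlap. Its difference of -2.64 includes knockout replicate 1, where Cxcl2 was not well above background. By exact permutation its p was 0.1, the lowest that 3 against 3 arrays allow, and 0.3 after adjustment over the 6 comparisons. Ppbp was not well above background on any knockout array, so its ratio there is set by background and is not read. For Cxcl1 (-0.84, knockouts from 0.13 to 3.96 around controls of 2.86 to 3.43), Cxcl3 (-1.64), Cxcl5 (-0.52) and Pf4 (0.01) the groups overlapped, with exact permutation p from 0.4 to 1; the Cxcl3 ratio also rests on background in knockouts 1 and 2.

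Genes next to the ligands on chromosome 5 did not share one direction. In gene order the cluster runs Cxcl5, Ppbp, Pf4, Cxcl3, Cxcl15, Cxcl1 and Cxcl2, where Cxcl15, a chemokine best known from lung, was not well above background on any array. On the Cxcl5 side, Rassf6, a Ras-association domain gene, differed by 1.05 with marked spots kept (limma adjusted p = 0.0701). On the Cxcl2 side, Mthfd2l, a mitochondrial folate enzyme, differed by -0.48 (adjusted p = 0.0886). Beyond it, the EGF-family ligand genes Epgn (-1.97, adjusted p = 0.111) and Areg (0.91, adjusted p = 0.332) had opposite signs, and Ereg, marked as an outlier on 5 arrays, was at -1.74 with those spots kept (adjusted p = 0.190). None of these neighbours was called.

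**Figure D3:**
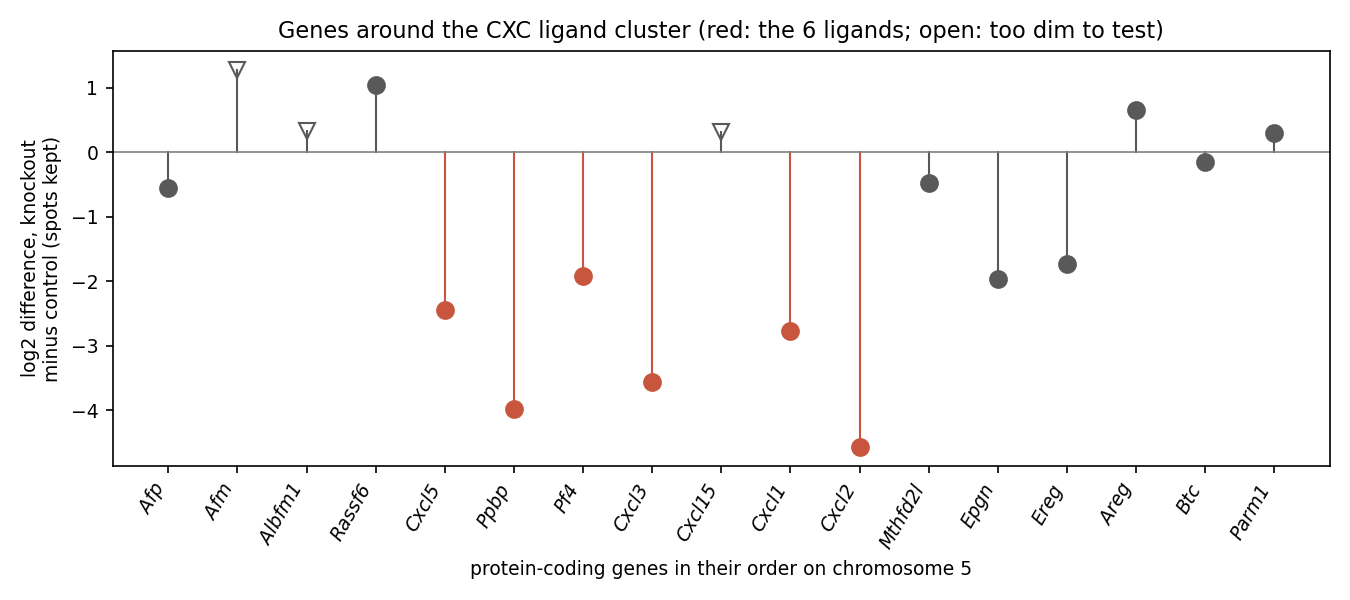
Log2 difference between Islr knockout and control with marked spots kept (y axis) for protein-coding genes in their order along chromosome 5 (x axis, evenly spaced); red marks the 6 ligands and open triangles genes too dim to test. The ligands lie between -4.58 and -1.92, and the flanking genes that could be tested between -1.97 and 1.05.

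Beside Cxcl1, Cxcl2 and Cxcl3, GGGAATTTCC was found before the start of 25 other genes, of which 14 could be tested with marked spots kept. Their log2 differences ran from -0.53 to 0.84 with a median of 0.02, 7 lower and 7 higher, and limma called 0 of them. Of the 14, 2 have an unadjusted p under 0.05, both higher (Krtap5-3 and Lyzl4), against 29.2% of named genes in that fit. Nfkbia, the NF-κB inhibitor and a well-known target of that factor, differed by -0.04 (adjusted p = 0.907).

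Cytokines, cytokine receptors and NF-κB components, listed as possible inducers of the ligands, were examined next. Whether any of them induced the ligands in these animals was not tested. Of 15 tested genes of this list 11 were lower, with a median log2 difference of -0.59, against 48.5% lower and a median of 0.02 over 15573 named genes. Called lower were Csf3 and Osm, 2 of 15, where 2.47% of named genes were called lower. Csf3, Csf2, Il1a and Il6 entered the test through the controls alone, so their direction is no independent evidence. With only probes well above background on all 6 arrays, 11 genes were tested, the median was -0.25 and 1 was called. Csf3 encodes G-CSF, which drives neutrophil production and release. It was well above background in every control and no knockout. With the marked spot of 1 control kept, the control mean was at least 20.1-fold higher (limma adjusted p = 0.0107). That spot was the highest of the controls (-0.19, against -1.83 and -1.50 on the log2 scale), so the bound is lower without it. Csf3 also passed without that spot (adjusted p = 0.0169). Osm, a cytokine of the interleukin-6 family, differed by -2.45 (SE 0.37, adjusted p = 0.0319). Il6 (-4.05, adjusted p = 0.0671), Il1a (-3.09, 0.0799) and Csf2 (-2.75, 0.0657) did not pass, nor did Il17rc, a subunit of the interleukin-17 receptor, which was higher (0.95, 0.0690). Neither did Il1b (-2.12, 0.226), Il22 (-0.97, 0.583), Tnf (0.14, 0.846) or Rela (0.01, 0.973). Il1r1, marked as an outlier on 4 arrays, passed with marked spots kept (-2.29, adjusted p = 0.0441). Il17a was well above background on 1 control only and Il17f on 2 arrays of each group, so neither was tested. Neither Csf3 nor Osm was called, with marked spots left out, when control replicate 2, control replicate 3 or knockout replicate 3 was dropped. With no filter on dim probes, 1 gene of the list was called.

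Among the remaining CXC chemokines and receptors, 8 of 10 tested genes were lower and 1 was called. Of named genes 48.5% were lower and 2.47% were called lower. The median was -0.37. Ackr3, a scavenging receptor for Cxcl12, differed by -2.52 (SE 0.40, limma adjusted p = 0.0351). Ackr1, the vessel-bound receptor that takes up Cxcl1, Cxcl5 and other inflammatory ligands, differed by -1.31 (SE 0.32, adjusted p = 0.0668). Its groups did not overlap, as at 34.9% of all probes with marked spots kept. The interferon-induced Cxcl9 differed by 0.01 (SE 0.41, adjusted p = 0.986), and Cxcl10 by -0.03 with marked spots kept. The call of Ackr3 was lost on dropping control replicate 2 or 3 or knockout replicate 3, and with no filter on dim probes. Cxcl12 and Cxcl14, stromal and epithelial chemokines, differed by -1.27 and -1.23 and did not pass (adjusted p = 0.0773 and 0.0952).

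Other neutrophil attractants and receptors were lower for 7 of 9 tested genes, with a median of -1.32. Beside this list and the next ones, 48.5% of named genes were lower and 2.47% were called lower. Ptafr, the receptor for platelet-activating factor, was called (-1.32, SE 0.26, limma adjusted p = 0.0468), and the call was lost on dropping any 1 array, marked spots left out, and with no filter on dim probes. The formyl peptide receptor Fpr1 differed by -2.47 (adjusted p = 0.0633) and the complement receptor C5ar1 by -1.96 (0.0858). Ltb4r1, the leukotriene B4 receptor, differed by -0.22 (adjusted p = 0.592). Genes that act below Cxcr2 inside the cell were lower for 15 of 17 (median -0.44), with 0 called in limma. At an unadjusted p under 0.05 there were 3 lower and 1 higher, Plcb3, of 17, where 14.6% of named genes were lower and 13.7% higher at that level (28.3% in all). The largest difference was that of Rgs18, a regulator of G protein signalling in platelets and myeloid cells (3.99-fold lower, limma adjusted p = 0.123). Rgs18 entered the test through the controls alone. Genes of neutrophil adhesion and exit from vessels were lower for 9 of 10 (median -0.79), with 0 called in limma and 7 lower at an unadjusted p under 0.05, against 14.6% of named genes. The largest there was that of Selp, P-selectin of platelets and endothelium (-1.79, adjusted p = 0.0739).

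**Figure D4:**
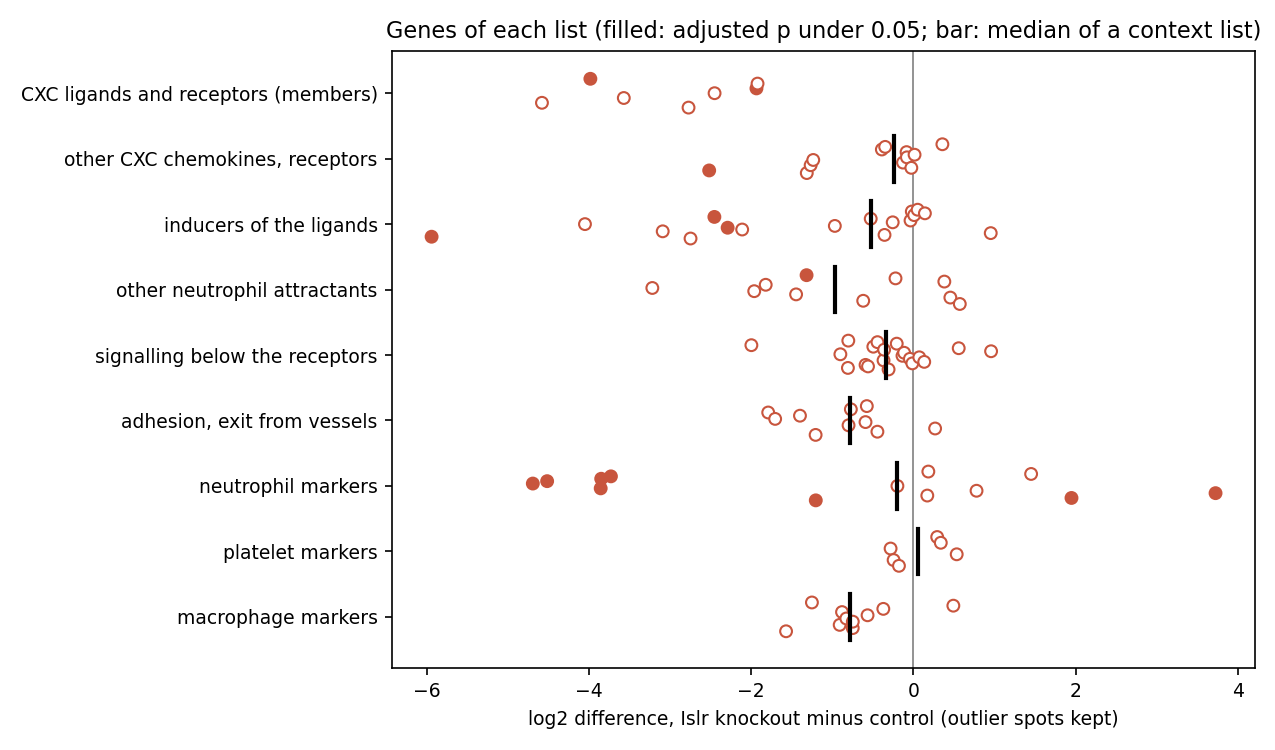
Log2 difference between Islr knockout and control with marked spots kept (x axis) for each tested gene of the named lists (rows); filled points have a limma adjusted p under 0.05 and bars are list medians. The ligands and receptors lie between -4.58 and -1.92, the platelet markers lie around 0, and the neutrophil markers spread from -4.69 to 3.73.

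Markers of the cells that make or carry these genes moved unevenly. Of 11 tested neutrophil markers 6 were called lower, where 2.47% of named genes were, and 2 higher, where 1.37% were. The median was -1.20, and -0.20 with marked spots kept, when 13 could be tested. Called lower were Camp (-1.20), Mrgpra2a (control mean at least 6.07-fold higher), Retnlg (-4.47), S100a8 (-3.92), Mmp8 (-3.85) and S100a9 (-3.73). Mrgpra2a and Mmp8 entered the test through the controls alone, so their direction is no independent evidence. Without control replicate 2, 1 of the 8 calls was left, and without control replicate 3 or knockout replicate 3, 2 calls. With only probes well above background on all 6 arrays, 9 markers were tested and the median was -0.20. Of these, 6 were called, 4 of them lower. Ltf (3.66, limma adjusted p = 0.0299) and Cd177 (1.95, 0.0468) were called higher. With marked spots kept, Stfa2l1 (1.45, limma adjusted p = 0.0782) and Ly6g (0.78, 0.106) were also higher and did not pass. Which cells made the markers, lower or higher, was not tested. Csf3r, the receptor for G-CSF, differed by 0.17 (adjusted p = 0.483), and Ngp and Elane were not well above background on any array. The summed signal of all 16 neutrophil markers was 3183% to 3540% of the 75th percentile in controls and 2764% to 3021% in knockouts. That sum rests largely on bright probes, among them Csf3r, Trem1 and Ly6g, which were not lower. Their means were 3.02, 3.03 and 2.21 in controls and 3.20, 3.21 and 2.99 in knockouts (log2, marked spots kept). The sum therefore does not measure the change of the markers called lower. The part of the neutrophil markers in the lower Cxcr2 signal was not tested.

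Platelet markers are set here beside Ppbp and Pf4. Of 10, 6 were tested, 3 lower and 3 higher, with a median of 0.06, and limma called 0 of them (1, Gp6, at an unadjusted p under 0.05, against 28.3% of named genes). Their summed signal was 74.2% to 101% of the 75th percentile in controls and 77.7% to 103.5% in knockouts, so the groups overlapped. The largest difference was that of Gp6, a collagen receptor (0.53, adjusted p = 0.112). Gp1ba and Gp5 were not well above background on any array, and Gp9 only on 1 control.

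Macrophage markers were lower for 8 of 9 tested genes, where 48.5% of named genes were, with a median of -0.73. In limma 0 were called (4 lower, and Ly6c2 higher, at an unadjusted p under 0.05, where 28.3% of named genes lay). The largest difference was that of Adgre1, which encodes a surface receptor of tissue macrophages (-0.96, adjusted p = 0.109, and -1.57 with marked spots kept), and the summed signal of 10 markers was 2558% to 3550% in controls and 2251% to 2614% in knockouts. All 6 tested epithelial markers were higher in knockouts (median 0.92, largest Krt18 at 1.33, adjusted p = 0.0803), with 0 called in limma and 1 at an unadjusted p under 0.05 (13.7% of named genes were higher at that level). The summed signal of 8 epithelial markers was 2014% to 6084% in controls and 6793% to 9043% in knockouts. That of 8 fibroblast markers was 4482% to 5205% and 2786% to 3912%, with Pdgfrb called (-1.17, adjusted p = 0.0395, lost on dropping any 1 array, marked spots left out, and with no filter on dim probes), and that of 6 endothelial markers 763.7% to 893.9% and 222.5% to 534.9%, with Pecam1 at -1.70 (adjusted p = 0.0602). Among 5 genes that mark position and maturity of the colon, all were higher in knockouts and 0 were called in limma (2 higher at an unadjusted p under 0.05, against 13.7% of named genes). The largest difference was that of Slc26a3 (3.69, adjusted p = 0.0883), and their summed signal was 427.8% to 1580% in controls and 2159% to 3290% in knockouts. The part of any of these in the lower chemokine signals was not tested.

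For each gene well above background on all arrays, the 3 most similar genes were taken by Pearson correlation of log2 signals over the 6 arrays, among 16758 others and with marked spots kept. Because 3 of the 6 points are controls and 3 knockouts, such values include the difference between genotypes and are a description only. For Cxcl1 they were Boc, Il1b and Rab38 (r = 0.998, 0.995 and 0.995). Il1b, which encodes interleukin-1β, was 2.15, 2.11 and 2.25 in controls and -1.81, 0.36 and 1.63 in knockouts 1, 2 and 3 (log2 relative to the 75th percentile). It was also among the 3 most similar genes of Cxcl5 (r = 0.989), after Msantd3 and Zcchc3. For Pf4 they were Arhgap20, Cadm1 and Ptpn13 (r = 0.998, 0.995 and 0.995), and for Cxcr2 Atp1b3, Pelo and Rbpjl (r = 0.998, 0.997 and 0.997).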

How the data were processed

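Per the file headers, each array was read with Agilent Feature Extraction 11.5.1.1 (the submitters' processing notes name 10.7) on array design 074809; the files hold the red channel, although the labels name the green one, and the controls' titles carry WT. Per the file headers, the deposited processed signal is an intensity after background subtraction, and arrays were not scaled to each other. The authors' value table holds the same intensity averaged over spots (log2 correlation at least 0.999999) and served as an alternative.

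Each log2 signal was taken relative to its array's 75th percentile. Outlier-marked spots (3.26% to 16% of spots, 10.7% to 56.8% of the brightest 10%) were left out, and values with them kept are given beside. Probes well above background on all 3 arrays of a group, with at least 2 usable values per group, were tested with limma 3.58.1 in R 4.3.3, two-sided, adjusted over 35351 probes. A gene's brightest probe stood for it. Simulated data (35351 probes, 3 arrays per group) gave 92.5%, 52.2% and 10.6% recovery of changes of 4, 2 and 1 log2. The simulation gave both groups of a probe the same spread. Knockouts spread more than controls for Cxcl1, Cxcl2, Cxcl3 and Cxcl5, so these rates do not describe those genes. Bounds set the bright group's mean against the detection floor of the dim arrays. The number of arrays limits precision. Replicate numbers follow accession order and only name samples.

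The 8 genes and all lists were chosen with earlier results of these data known. Genes named from a list are its called ones (at most 6, by size) or, with none called, the one with the largest difference; other list genes, the neighbours on chromosome 5 and the promoter strings were chosen after values were seen. Promoters come from RefSeq (GRCm38.p6); the headers give mm9 for the array, so no array coordinates are used. 1 listed gene, Cxcl11, had no named probe, and values of 1 other are not reported singly here.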

Additional observations from a re-analysis of the deposited data

How the results depend on the processing

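No tested member changed sign under any alternative. Ppbp and Cxcr2 were the members called in the main fit. The count of members called was 1 (Cxcr2, of 2 tested) when only probes well above background on all 6 arrays were used. Leaving out 1 array gave 0 to 2 members called, and 1 to 3 with marked spots kept. Over all probes the count of 1403 became 2773 under normexp with quantile normalization, 2249 under median centring, 8119 with array weights (50.7% higher in the knockout, against 39.1%), 484 with no filter on dim probes and 2274 from the authors' value table. It was 40 to 2114 when 1 array was left out (lowest without knockout replicate 3) and 120 to 3185 with marked spots kept (178, 278 and 378 without control replicate 2, control replicate 3 and knockout replicate 1). The cause of these shifts was not tested. No paired analysis was made because the labels link no control animal to a knockout animal. With 3 arrays per group, dim knockout signals of Cxcl2, Cxcl3 and Ppbp limit the sizes given for them.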
